A study of Mus musculus with 62 samples.

Results

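The histone genes of the mouse were examined in sequencing libraries of poly(A) RNA, of single-ribosome footprints (Ribo-seq) and of ribosome-pair footprints (Disome-seq) from the heart, and in RNA-seq and Ribo-seq libraries from C2C12 cells. Members were the genes whose GENCODE M21 symbol starts with Hist1h, Hist2h, Hist3h, Hist4h, H2af, H1f or H3f3, with 1 transcript kept for each gene, that with the highest mean count. The table of counts held 36 such genes on 45 transcript lines, of 10476 genes with a symbol and 23877 transcripts. GENCODE M21 has 82 protein-coding genes whose name starts this way, and 44 of them lie on the plus strand, the strand of every transcript of the table that matched the annotation. H3f3a and H3f3b, which encode H3.3, were therefore not analysed here in these assays.

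The study asked what the ribosome gains or loses with RPL3L, the paralog of the ribosomal protein RPL3 that is made in heart and skeletal muscle. Whole hearts came from 10-week-old wild-type (WT) mice and from Rpl3l-/- mice, in which CRISPR-Cas9 editing of C57BL/6J zygotes had removed exon 2 and shifted the reading frame. Each genotype had 4 mice in the RNA, monosome and disome libraries and 3 in m6A-seq. C2C12 cells, a line of mouse myoblasts, were kept dividing and had been infected with a retrovirus for mouse RPL3 (RPL3 OE), mouse RPL3L (RPL3L OE) or no protein (control), then selected with puromycin, with 3 cultures of each for RNA-seq and Ribo-seq. A whole heart holds cardiomyocytes, fibroblasts, endothelial and blood cells together, so a smaller number of cells of a type and less RNA in each cell cannot be told apart. C2C12 is 1 line, and it differs from the heart in cell type, culture and experiment at once.

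Histones are the proteins around which nuclear DNA is wound: H2A, H2B, H3 and H4 form the nucleosome core, and H1 binds the linker DNA. Most histone genes are replication-dependent: they are transcribed in S phase to package newly made DNA, and their mRNAs typically end in a conserved stem-loop in place of a poly(A) tail. Replacement variants such as H2A.Z, H2A.X and H1.0 are made outside S phase as well, mostly from polyadenylated mRNAs. RNA-seq libraries of this study were made from poly(A)-selected RNA, whereas Ribo-seq sequences the fragments that single ribosomes protect from RNase I, with no selection for a tail.

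By class, 6 members encode H1, 9 H2A, 10 H2B, 6 H3 and 5 H4. Replacement variants numbered 5: H1f0 (H1.0), H1foo (the linker histone of oocytes), H2afj (H2A.J), H2afx (H2A.X, phosphorylated at DNA breaks) and H2afz (H2A.Z). The other members, whose symbols start with Hist, are called replication-dependent here by their name alone. In all, 25 members lie on chromosome 13, 5 on chromosome 3, 2 each on chromosomes 6 and 11 and 1 each on chromosomes 9 and 15. The pattern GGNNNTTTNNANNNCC, searched on the transcript strand within 100 bases after the stop codon, was found in 25 of the 36 members and in 44 of 23575 other transcripts (0.187%). The stem-loops are shown for H2afx and for the replication-dependent genes that ranked first and second in their class by C2C12 Ribo-seq level, since this element stands in place of the tail in such mRNAs. Sequences were taken from the GENCODE M21 transcripts (GRCm38, plus strand), capitals mark the 16 bases of the stem-loop, and lower-case letters up to 5 bases on each side.
Hist1h1d: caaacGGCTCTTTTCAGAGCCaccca
Hist1h1c: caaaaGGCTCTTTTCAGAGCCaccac
Hist2h2aa1: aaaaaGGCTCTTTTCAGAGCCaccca
Hist3h2a: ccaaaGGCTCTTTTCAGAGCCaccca
Hist1h2bg: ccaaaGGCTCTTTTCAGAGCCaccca
Hist1h2bk: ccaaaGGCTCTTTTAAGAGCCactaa
Hist2h3c1: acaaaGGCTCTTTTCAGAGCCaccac
Hist1h4d: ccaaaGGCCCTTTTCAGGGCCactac
Hist1h4m: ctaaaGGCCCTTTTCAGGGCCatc
H2afx: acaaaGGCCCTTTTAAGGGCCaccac

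The core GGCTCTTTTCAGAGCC occurred in 15 members of the H1, H2A, H2B and H3 classes, and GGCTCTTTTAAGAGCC, a close form, in 4. H4 genes carried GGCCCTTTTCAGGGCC in 3 cases (Hist1h4d, Hist1h4h and Hist1h4m) and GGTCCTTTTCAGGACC in 2. H2afx was the only replacement variant with a match, and Hist2h3b had none in its annotated 3′ end, which runs 37 bases past the coding sequence. The polyadenylation word AATAAA also stood after the stop codon of 7 members with the stem-loop pattern, Hist1h1c, Hist1h1d, Hist1h1t, Hist1h4j, Hist2h3c1, Hist3h2a and Hist3h2ba. Among members with a Hist symbol, Hist1h2bc, Hist1h2br and Hist2h2be had AATAAA and no match to the pattern.

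The genes described below lie, in GRCm38 and on the plus strand, at chr15:79028450-79030504 (H1f0), chr6:136808333-136809793 (H2afj), chr9:44334694-44336077 (H2afx) and chr3:137864487-137866922 (H2afz), and among replication-dependent genes at chr13:23553262-23560686 (Hist1h1d), chr13:23738808-23740367 (Hist1h1c), chr13:23571396-23572013 (Hist1h2bg), chr13:22035870-22036345 (Hist1h2bk), chr13:23581598-23582735 (Hist1h4d) and chr13:21811746-21812147 (Hist1h4m) on chromosome 13. Elsewhere lie chr3:96245497-96246082 (Hist2h2aa1), chr3:96246685-96248509 (Hist2h3c1), chr3:96268654-96269141 (Hist2h3b) and chr11:58954685-58956830 (Hist3h2a).

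Many members share their sequence, and footprint reads were allowed to map to several places. Of the 28-base words of a member's coding sequence, a median of 79.3% also occurred in another histone gene, and 24 of the 36 members shared more than 50%. A pair of members was joined where it shared at least 50% of the words of the shorter coding sequence, and joined pairs were chained. This left 19 sets, of which 14 held a single gene. A gene alone in its set can still share words: 58.6% of those of Hist1h4d occurred in other histone genes. The sets of several genes were Hist1h2bb, Hist1h2bc, Hist1h2bg, Hist1h2bj, Hist1h2bk, Hist1h2bm, Hist1h2bp and Hist1h2br for H2B, Hist1h2ab, Hist1h2ad, Hist1h2af and Hist1h2ao for H2A, Hist1h3b, Hist1h3d, Hist1h3f and Hist1h3g, then Hist2h3b with Hist2h3c1 for H3, and Hist1h4b, Hist1h4h, Hist1h4j and Hist1h4m for H4. Values within a set are uncertain for each gene and are not independent. All coding words of Hist2h2aa1 occurred in Hist2h2aa2, a gene outside the table, whereas H1f0, H1foo, H2afz and Hist1h1t shared no coding word. Hist2h2aa1 and Hist2h3c1 also overlap Gm20634, and Hist3h2a overlaps Trim17, on the same strand. The strand setting used in counting is not given in the sources used here, so reads of overlapping genes on the opposite strand, found for 11 members including H2afx and H1f0, cannot be told apart either.

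Total counts were 3594696 to 29746110 in RNA-seq, 1606700 to 6093268 in Ribo-seq and 39016 to 175747 in Disome-seq after the 2 deposited columns of a mouse were added. Levels are CPM, a transcript's counts relative to the TMM-scaled total of its library, and differences are log2 fold changes ± standard error from edgeR's quasi-likelihood test, with p-values adjusted by Benjamini-Hochberg over all transcripts tested; a difference was called at an adjusted p under 0.05. A transcript was tested where its mean count over the libraries of a fit was at least 10 (in each assay, for ratios between assays set against each other by group). Rpl3l itself was at 490 to 717 CPM in WT and 32.3 to 54.8 CPM in Rpl3l-/- RNA-seq, at means of 323 and 12.9 CPM in the corresponding Ribo-seq, and at 1535 to 1571 CPM in RNA-seq and 1044 to 1104 CPM in Ribo-seq of RPL3L OE cells. The 11 measured cardiomyocyte markers summed to 64761 to 85503 CPM in WT heart RNA-seq and 186 to 195 CPM in control C2C12 cells. Of 7 measured genes of the myoblast list, Myod1 and Cdh15 were the 2 at 0 in every heart RNA-seq library, and were at 53.9 to 127 CPM in control cells. The 7 genes summed to 2824 to 3140 CPM in WT heart and 4345 to 4478 CPM in control C2C12 RNA-seq. Between these groups 5 of the 7 were called higher in C2C12 cells and 2, Des and Itga7, lower (background 41.0% higher, 39.7% lower).

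In RNA-seq of the WT heart, replacement variants and a few replication-dependent genes made up most of the histone reads. The 36 genes summed to 477 ± 29.7 CPM (SD, n = 4), with 186 CPM from replacement variants. H2afz, the H2A.Z gene that marks promoters, was at 82.4, 79.0, 56.9 and 68.5 CPM. H1f0, the linker histone of resting cells, was at 68.3, 69.2, 85.7 and 66.9 CPM. Their ranges overlapped. Hist1h1c, the H1.2 gene, was at 63.4, 57.6, 95.3 and 76.4 CPM. Hist1h2bc was at 73.3, 85.2, 61.1 and 66.8 CPM. These replication-dependent genes thus stood as high as the variants, and both have AATAAA after the coding sequence. Hist1h4d was at 2.28, 0.315, 0.234 and 0 CPM, with the first library apart from the other three, and Hist1h1a at 0 in all of them. H3 genes were lowest as a class, summing to 4.66 ± 1.67 CPM.

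**Figure D1:**
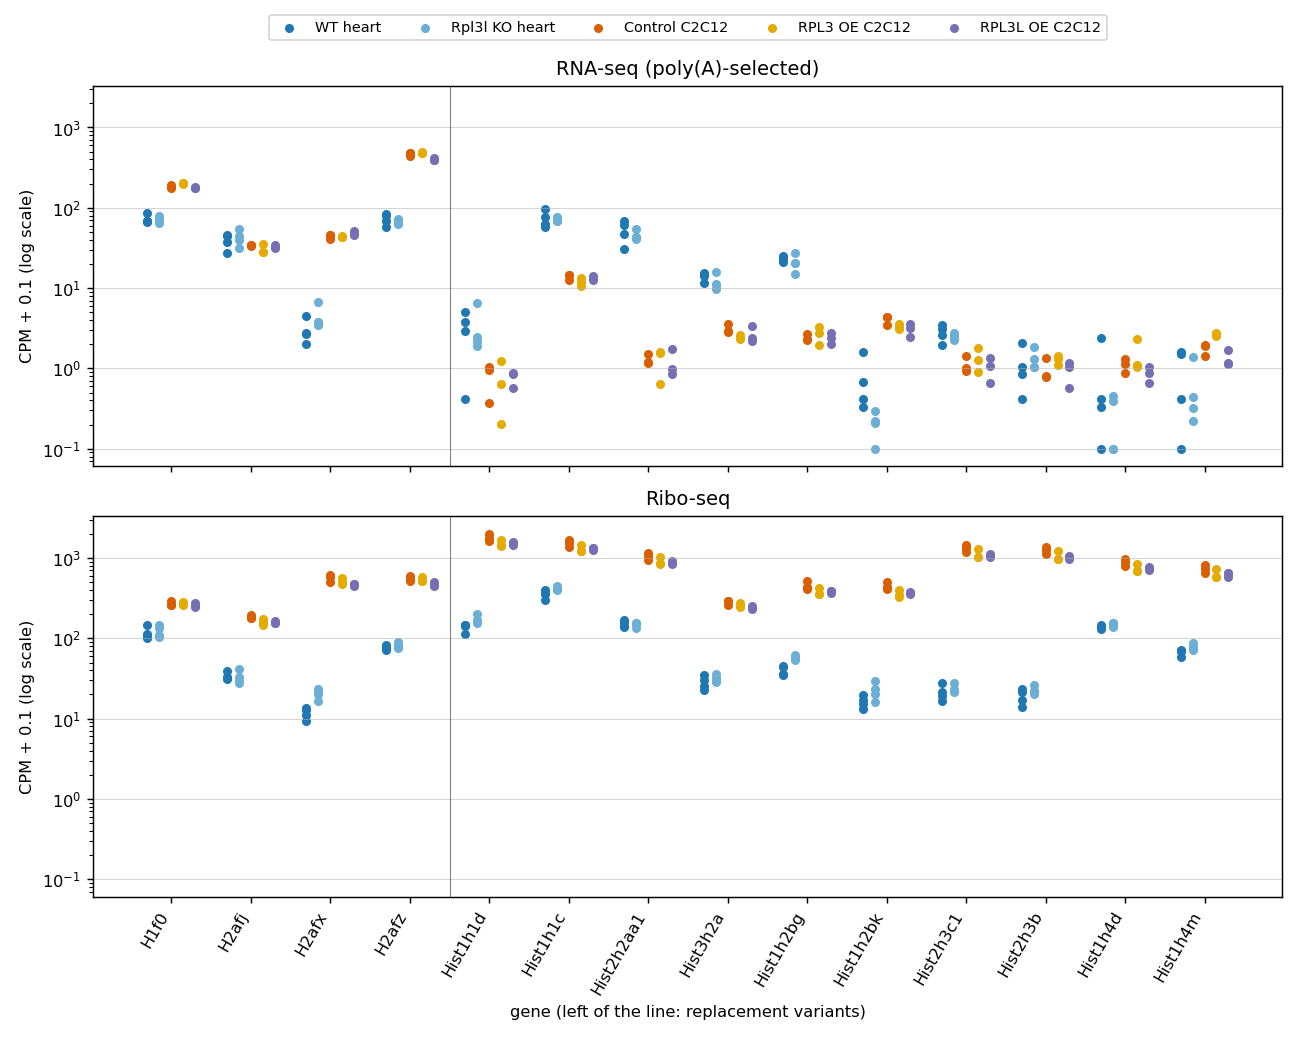
Levels of 14 named histone genes in each library, as CPM + 0.1 on a log axis, in RNA-seq (top) and Ribo-seq (bottom); each point is 1 library, colours are groups, and genes left of the vertical line are replacement variants. In C2C12 cells the replication-dependent genes lie far higher in Ribo-seq than in RNA-seq, and C2C12 points lie above heart points for all of these genes in Ribo-seq.

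Footprints gave another order of the same genes. In WT heart Ribo-seq the 36 genes summed to 1851 ± 131 CPM (SD, n = 4), of which 1612 ± 118 CPM came from replication-dependent genes. Per kilobase of coding sequence the highest mean levels were those of Hist1h1c (556 CPM per kb), Hist1h4h (502), Hist1h4d (443) and Hist2h2aa1 (387), with H2afz at 199.6 and H1f0 at 199. In control C2C12 cells Hist2h3b (3027 CPM per kb), Hist1h4d (2838), Hist1h1d (2717) and Hist2h2aa1 (2669.8) led, and H1f0 stood near the end of the order at 464. H1foo, a gene of oocytes, was at 0 in WT heart footprints.

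Levels in Ribo-seq and RNA-seq were then compared within the WT heart, a contrast that depends on how each assay captures these mRNAs and is therefore not a measure of translation alone. Of 36 members 29 were tested, and 26 were higher in Ribo-seq (48.8% of all transcripts tested were higher and 21.3% lower). Of the 29, 12 passed the count filter through Ribo-seq alone, and a gene that passes only through the assay where it is high is bound to differ, so nothing is read from their count. Of the 17 whose RNA-seq counts passed it too, 14 were higher and 0 lower, with a median log2 difference of 2.44, against 0.45 for all transcripts. Hist1h1d, at 4.93, 0.315, 2.81 and 3.71 CPM in RNA-seq and 113, 147, 146 and 142 CPM in Ribo-seq, was higher in Ribo-seq by 5.63 ± 0.26 on the log2 scale, the highest value of those 17. The assays did not overlap. Hist1h4b (3.80 ± 0.20) and Hist1h4h (3.14 ± 0.16), H4 genes, and Hist2h3c1 (3.08 ± 0.27) for H3 were higher as well. The 20 called with the smallest p were Hist1h4d, Hist1h1d, Hist1h3d, Hist1h3f, Hist1h4h, Hist1h4b, Hist1h3b, Hist1h4j, Hist1h4m, Hist1h1c, Hist1h3g, Hist1h1a, Hist1h2bk, Hist2h3c1, Hist2h3b, Hist1h2br, Hist1h2bb, Hist2h2aa1, Hist1h2bj and Hist2h2be. The members that did not differ past the threshold were H2afz (0.28 ± 0.14, adjusted p = 0.07), Hist1h2bc (-0.19 ± 0.14, 0.23) and H2afj (-0.03 ± 0.17, 0.87). Hist1h1a, listed at 0 in all 4 RNA-seq libraries, had 115 footprints, at least 106-fold higher against a floor of 3 counts over the group. Hist1h3f and Hist1h3b each had 2 RNA-seq counts in all 4 hearts together and 386 and 343 footprints.

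In control C2C12 cells the same contrast was wider. All 35 members tested were higher in Ribo-seq (background 41.8% higher, 32.7% lower). Of these, 4, Hist1h1a and Hist1h1t among them, passed the filter through Ribo-seq alone and were bound to differ, so nothing is read from their count. All 31 whose RNA-seq counts passed it too were higher, at a median of 7.39 on the log2 scale against 0.10 for all transcripts. Hist1h1d, at 0.940, 0.274 and 0.867 CPM in RNA-seq and 1626, 2015 and 1788 CPM in Ribo-seq, differed by 11.10 ± 0.10. Hist2h3b (10.39 ± 0.09), Hist2h3c1 (10.23 ± 0.09) and Hist2h2aa1 (9.66 ± 0.09) had differences of similar size. Hist1h1a, which passed the filter through Ribo-seq alone, was at 11.18 ± 0.10. For Hist1h1d the assays lay far apart in every culture. The replacement variants H2afz, at 0.10 ± 0.04 (adjusted p = 0.042), and H1f0, at 0.41 ± 0.04, had the lowest differences of the 35, followed by the H2A genes Hist1h2ao (1.64 ± 0.07), H2afj (2.28 ± 0.05), Hist1h2ad (3.21 ± 0.08), Hist1h2af (3.38 ± 0.08) and H2afx (3.53 ± 0.05), which carries the stem-loop. Hist1h1t, the testis linker histone, had 119 footprints and 0 RNA-seq counts, at least 223-fold higher against a floor of 3 counts over the group. The 20 with the smallest p were all replication-dependent: the 5 H4 genes (differences of 8.22 to 9.56), the 6 H3 genes (7.19 to 10.39), Hist1h1a, Hist1h1c and Hist1h1d for H1, Hist2h2aa1 and Hist3h2a for H2A, and Hist1h2bb, Hist1h2bg, Hist1h2bk and Hist1h2bm for H2B. The poly(A) selection of RNA-seq differs between the assays for all of these genes, and its part in these differences was not tested.

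Dividing C2C12 cells were next compared with the adult heart, where few cells divide. In Ribo-seq, 35 of 36 members were tested and 35 were higher in control C2C12 cells (background 41.8% higher, 41.4% lower), among them all 29 whose heart counts passed the filter. Another 6 passed it through C2C12 counts alone and were bound to differ, so nothing is read from their count. The median over those 29 was 3.76 on the log2 scale, against 0.02 over all transcripts. H2afx was at 13.5, 11.1, 12.5 and 9.38 CPM in the 4 hearts and 504, 617 and 583 CPM in the 3 cultures, a difference of 5.61 ± 0.11. Hist2h3b was at 13.8, 16.9, 21.1 and 23.1 CPM in hearts and 1113, 1362 and 1257 CPM in cultures, a difference of 6.12 ± 0.13. Groups did not overlap for either gene. The lowest differences were those of H1f0 (1.25 ± 0.10), which was at 104, 114, 147 and 101 CPM in hearts and 259.8, 291 and 264 CPM in cultures, of Hist1h1c (2.13 ± 0.09) and of Hist1h4h (2.16 ± 0.09).

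The smallest p-values were those of Hist1h1a (5.77 ± 0.11), Hist2h3b, Hist2h3c1 (6.02 ± 0.12), H2afx and the H3 genes Hist1h3b (4.63 ± 0.11), Hist1h3g (4.94 ± 0.11), Hist1h3d (4.52 ± 0.10) and Hist1h3f (4.44 ± 0.10). The next 12 were Hist1h2bm, Hist1h2bp, Hist1h2bk, Hist1h1d, Hist1h4m, Hist1h2bb, Hist1h2bj, Hist1h2af, Hist1h2ad, H2afz, Hist2h2be and Hist1h4d. Hist1h2af, Hist1h2ad and Hist1h1t passed the filter through C2C12 counts alone. Hist1h1t had 119 footprints in control cells and 3 in WT hearts. Heart footprints were 1.35 to 43.0% of the C2C12 level over the 35 genes (median 5.51%). Myod1 and Cdh15, the myoblast genes at 0 in heart RNA-seq, were at 0.438 and 0.461% of their C2C12 level in the heart. Library totals in place of TMM scaling moved the median of all transcripts by 0.40 in this comparison and left 35 members higher. Of 12 measured S-phase and mitosis genes, 11 were higher in C2C12 cells (background 41.8% higher, 41.4% lower). Only 4 of the 12 had counts enough to be tested between the heart genotypes in Ribo-seq. A gene that passes the filter through C2C12 counts alone is bound to be higher, so nothing is read from the 11. The 11 were led by Rrm2 (6.40 ± 0.10), a subunit of ribonucleotide reductase, Mcm5 (4.94 ± 0.11) of the replicative helicase, and the mitotic genes Birc5 (6.46 ± 0.15) and Plk1 (9.17 ± 0.21). The 1 lower, named after its value was seen, was Ung, which removes uracil from DNA.

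In RNA-seq members were called in both directions. Of 31 tested, 12 were higher in C2C12 cells (background 41.0%) and 12 lower (39.7%), with 17 higher and 10 lower under library totals, which moved the median of all transcripts by 0.75. Of the 31, 14 passed the filter through C2C12 counts alone, among them the H2A genes Hist1h2ao, Hist1h2ad and Hist1h2af, the H3 genes Hist1h3b, Hist1h3d, Hist1h3f and Hist1h3g, and Hist1h2bk. Of the 14, 9 were higher and 1, Hist1h2bm, was lower. A member that passes only through the group where it is high is bound to differ, so nothing is read from the 9. Of the 17 with enough heart counts, 3 were higher (H2afz, H2afx and H1f0) and 11 lower. Whether the C2C12 counts of these 17 passed the filter too was not checked. A member that passes through the heart alone is bound to be lower, so nothing is read from the 11 either. H2afz rose by 2.69 ± 0.12, from the heart values above to 439.8, 474 and 481 CPM, with no overlap. Hist2h2aa1 was at 67.9, 61.0, 30.5 and 47.1 CPM in hearts and 1.09, 1.42 and 1.08 CPM in cultures, a difference of -5.44 ± 0.29. Hist1h2bc (-4.13 ± 0.18), Hist1h4h (-3.68 ± 0.25), Hist1h2bg (-3.34 ± 0.18) and Hist1h1c (-2.43 ± 0.17) were also lower in C2C12 cells in RNA-seq and higher in Ribo-seq. So were Hist3h2a (-2.23 ± 0.22), Hist2h2be (-3.69 ± 0.47), Hist1h4j (-1.94 ± 0.32) and Hist1h4b (-1.72 ± 0.34). H2afj did not differ past the threshold in RNA-seq (-0.21 ± 0.15, adjusted p = 0.22).

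**Figure D2:**
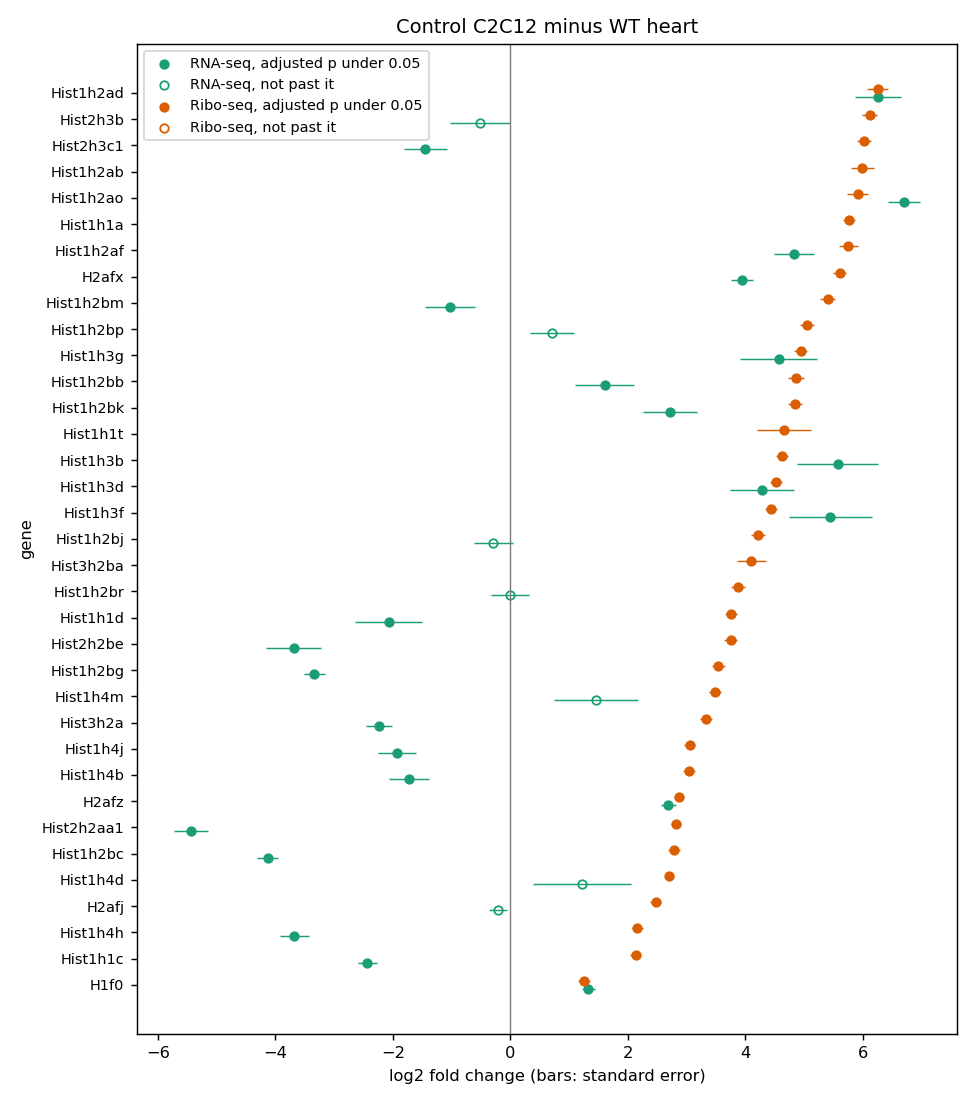
Log2 fold change of control C2C12 cells over WT heart for each histone gene tested, in RNA-seq and Ribo-seq, with standard errors as bars; filled points passed an adjusted p under 0.05. Ribo-seq points all lie right of 0, while RNA-seq points lie on both sides. In Ribo-seq, 6 members, Hist1h2ad among them, passed the count filter through C2C12 counts alone and were bound to lie right of 0. Over the 29 whose heart counts passed it, points run from 1.25 for H1f0 to 6.12 for Hist2h3b.

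Genes that act on histones or their mRNAs were counted in the same way. Over all transcripts, 41.0% were higher and 39.7% lower in C2C12 RNA-seq, and 41.8% and 41.4% in Ribo-seq. Of 19 measured chaperone and deposition genes, 17 were higher in C2C12 RNA-seq and 18 in Ribo-seq, with 0 lower in either. Between the heart genotypes all 19 had counts enough to be tested in RNA-seq, but only 15 in Ribo-seq. A gene that passes the filter through C2C12 counts alone is bound to be higher, so nothing is read from the 18. The 18 were led by Asf1b, a chaperone of new H3-H4 (5.32 ± 0.14), Chaf1a of chromatin assembly factor CAF-1 (4.70 ± 0.17), Set (2.00 ± 0.07) and the H2A-H2B chaperone Nap1l1 (2.02 ± 0.08). Of 12 genes for histone mRNA 3′-end processing and related polyadenylation factors, 7 were higher and 3 lower in RNA-seq and 7 were higher and 2 lower in Ribo-seq. In RNA-seq the smallest p-values were those of Cstf2 (2.62 ± 0.14), a cleavage factor, Casp8ap2 (2.42 ± 0.17), which takes part in histone pre-mRNA cleavage, the scaffold Sympk (-1.35 ± 0.10) and the cap-binding subunit Ncbp1 (1.35 ± 0.12).

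Loss of Rpl3l was compared next. In heart RNA-seq, 20 members were tested and 0 were called (background 0.013%). The smallest p-values were those of Hist1h2bm (0.97 ± 0.53) and Hist1h4h (0.34 ± 0.20), with adjusted p = 1.0 for both. H2afz lay at 70.3, 63.5, 68.9 and 72.8 CPM in Rpl3l-/- hearts, within the range of WT, and H1f0 at 71.8, 79.9, 65.2 and 69.0 CPM. The interval of the difference was narrow for abundant members only: the standard error was 0.13 for H1f0 and 0.60 for Hist2h3b. Of the proliferation (7 tested), processing (12) and chaperone (19) genes 0 were called in RNA-seq, nor was any in Ribo-seq (4, 12 and 15 tested).

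In heart Ribo-seq 29 members were tested and 0 were called by edgeR (background 0.677%, 0.425% higher). DESeq2 called 3 higher (Hist1h2bg, Hist1h3f and Hist1h3g, background 0.874%), a filter at a mean count of 50 left 2 (Hist1h2bg and Hist1h3f), and leaving out WT replicate 2 gave 1 (Hist1h3f). Hist1h3f was at 42.2, 54.0, 44.7 and 43.1 CPM in WT and 70.5, 65.7, 66.7 and 62.7 CPM in Rpl3l-/- hearts, a difference of 0.53 ± 0.12 (adjusted p = 0.05003, just above the threshold). Hist1h3g was at 23.3, 30.9, 32.1 and 23.8 CPM in WT and 50.7, 43.1, 43.5 and 37.2 CPM in Rpl3l-/- hearts, 0.67 ± 0.15 (adjusted p = 0.054). In both, every Rpl3l-/- library lay above every WT library. Hist1h2bg was at 35.3, 43.4, 45.2 and 36.3 CPM in WT and 53.8, 58.0, 59.2 and 62.7 CPM in Rpl3l-/- hearts, 0.55 ± 0.12 (adjusted p = 0.054). H2afx was at 13.5, 11.1, 12.5 and 9.38 CPM in WT and 20.4, 23.1, 16.5 and 21.9 CPM in Rpl3l-/- hearts, 0.81 ± 0.19 (adjusted p = 0.065). Neither gene overlapped between the genotypes.

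For 12 of the 29 members every Rpl3l-/- library lay above every WT library, as it did for 4.76% of all transcripts tested, and for 0 members below, against 5.48%. The 12 were H2afx, Hist1h1d, Hist1h2bc, Hist1h2bg, Hist1h2bp, Hist1h3b, Hist1h3d, Hist1h3f, Hist1h3g, Hist1h4j, Hist1h4m and Hist2h2be, and several of them share reads. The median difference of the 29 was 0.23, with 25 above 0, against 0.01 over all transcripts. By class it was 0.45 for H2B, 0.41 for H3, 0.22 for H4, 0.16 for H1 and 0.12 for H2A. Members that moved least were Hist2h2aa1 (-0.02 ± 0.09), H2afj (-0.03 ± 0.15) and Hist1h4h (0.03 ± 0.09). The 12 measured proliferation genes summed to 119 to 136 CPM in WT and 119 to 142 CPM in Rpl3l-/- Ribo-seq, and blood and immune markers (6 genes) to 1609.5 to 2663 and 2111 to 3505 CPM; their part in the histone values was not tested.

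**Figure D3:**
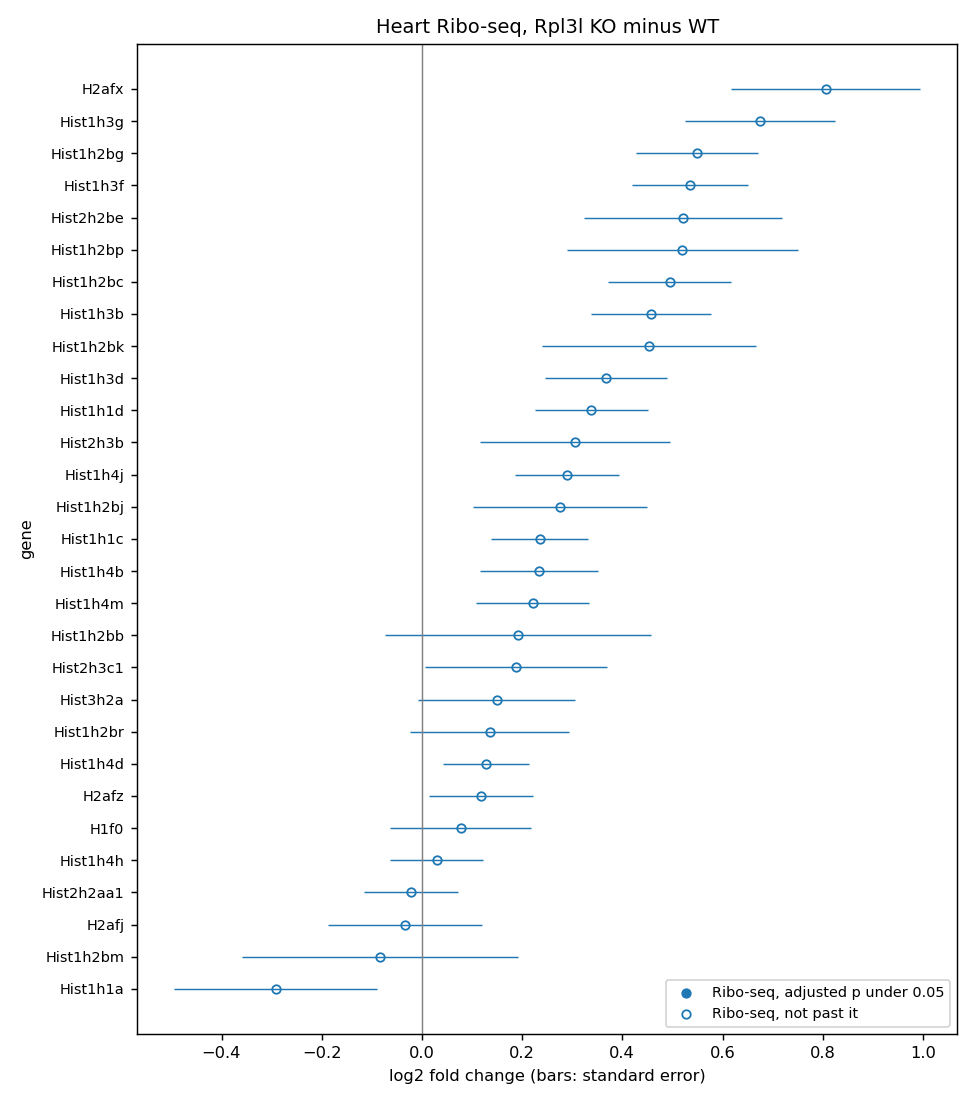
Log2 fold change of Rpl3l-/- over WT heart in Ribo-seq for the 29 histone genes tested, with standard errors as bars; open points did not pass an adjusted p under 0.05. No gene passed it, and 25 of the 29 points lie right of 0.

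Translational efficiency (TE), taken as the genotype difference in Ribo-seq beyond that in RNA-seq in a single model, was called for 0 of 20 members (background 0.0%), with 0 called by DESeq2. Hist1h2bg (0.72 ± 0.22, adjusted p = 0.50) and Hist1h2bc (0.50 ± 0.20, 0.70) had the smallest p-values. In m6A-seq, where reads were counted over peaks of methylated RNA, 2 peaks fell on a histone gene, both on H3f3b. The peak at chr11:116023474-116023518 (mm10) had a log2 difference of -0.61 ± 0.28 and that at chr11:116023753-116023782 one of -0.92 ± 0.46, and neither was called (0 of 2338 peaks tested were, 0.0%, adjusted p = 0.51 and 0.52, n = 3 per genotype, edgeR). The authors' TPM of the first peak was 394, 253 and 347 in WT and 179, 176 and 273 in Rpl3l-/- libraries, which overlapped. No input libraries were used, so a peak count moves with mRNA abundance.

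Disome-seq sequences the longer fragments covered by a pair of adjacent ribosomes. Its 2 deposited columns of each mouse, which the labels do not identify as runs, size fractions or separate libraries, differed in their histone content, and results are given for both. Each set of 8 columns held 350883 counts in all, although the totals of a mouse's columns differed. Histone genes were at 4582 to 27480 CPM, here unscaled, in the first columns (median 10943) and at 1429 to 7034 CPM in the second (median 1810), and the first was higher in each of the 8 mice. WT replicate 1 had 27480 CPM in its first column and 1621 CPM in its second. For 7 of 8 mice the first column correlated best with its own second column across 4524 transcripts (r 0.820 to 0.921), while for WT replicate 1 it did so with another mouse's (0.729, against 0.664 with its own). The myoblast genes Myod1 and Cdh15 had 5 and 18 counts in the first columns, 11 of the latter in WT replicate 1, and 2 and 0 in the second. Their part in the histone counts was not tested.

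**Figure D4:**
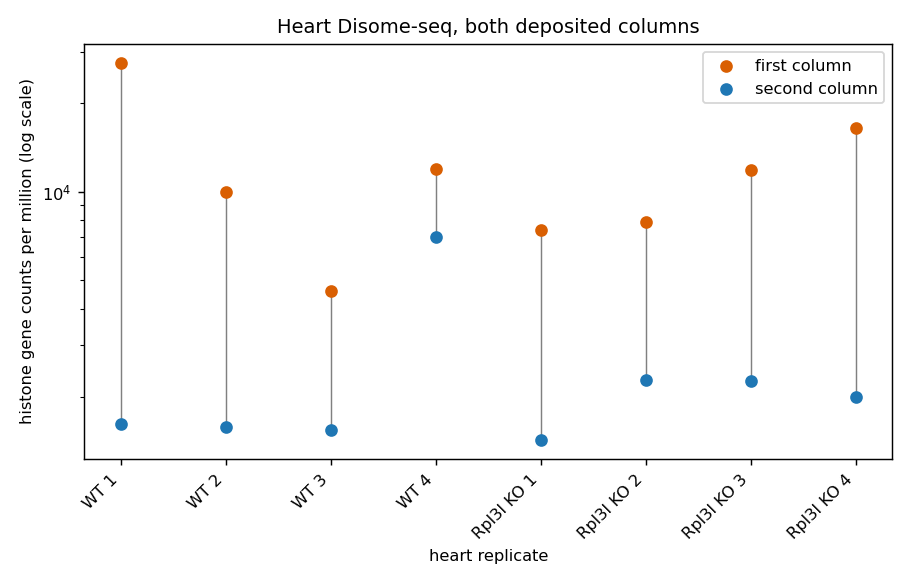
Summed level of the 36 histone genes, as unscaled CPM on a log axis, in the first and second deposited Disome-seq column of each heart; a grey line joins the columns of a mouse. The first column lies above the second in all 8 mice, and WT replicate 1 has the highest first column.

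With the columns summed, 28 of 29 members tested were higher in Disome-seq than in Ribo-seq of the WT heart (background 5.69% higher, 11.6% lower), at a median of 2.94 on the log2 scale, against -0.49 for all transcripts. With the first column alone 28 were higher (6.12%), whereas with the second alone 6 of 27 were (3.81%), at a median of 0.76. Without WT replicate 1 it was 21 of 28 (4.14%), at a median of 1.94. The 6 genes of the second column were Hist1h2bg, Hist1h3b, Hist1h3f, Hist1h3g, Hist2h3b and Hist2h3c1. Hist2h3b came first by p (5.30 ± 0.43). Hist2h3c1, the next, was at 1364, 324, 83.4 and 734 CPM in summed Disome-seq and 16.7, 19.3, 21.6 and 27.5 CPM in Ribo-seq, a difference of 5.24 ± 0.43, with no overlap. After these came, by p, Hist1h3b (4.22 ± 0.38), Hist1h3g (4.29 ± 0.39), Hist1h3f, Hist1h3d, Hist1h1a (4.03 ± 0.41), Hist1h4m, Hist1h2bg, Hist1h4b, Hist1h4j, Hist1h2bc, H2afx, Hist1h2bp, Hist1h2bm, Hist1h2bk, Hist1h4d, Hist1h2bb, Hist2h2be and Hist1h2br. H2afx was higher in the summed columns (3.82 ± 0.47) but at -0.60 (adjusted p = 0.79) in the second column alone, and H1f0 was at -0.23 ± 0.38 (adjusted p = 0.71). Over the 36 members, log2 levels in WT Disome-seq had r = 0.96 with those in control C2C12 Ribo-seq and r = 0.77 with those in WT heart Ribo-seq, a description over genes that share sequence. Of the other lists, 2 of 3 proliferation genes tested were higher in Disome-seq (Rrm1 and Rrm2), 2 of 14 chaperone genes (Vps72 and Nap1l1) and 0 of 11 processing genes.

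The ratio of disome to monosome footprints did not differ past the threshold between genotypes for any of 22 members (background 0.0%), with 1 called lower by DESeq2. All 22 lay below 0, with a median of -1.04 on the log2 scale, which became -0.08 without WT replicate 1. Hist1h2bc (-1.40 ± 0.43, adjusted p = 0.35) and Hist1h2bg (-1.29 ± 0.48, 0.45) had the smallest p-values. With the second column alone no member had counts enough to be tested.

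Overexpression of RPL3L or RPL3 in C2C12 cells was compared with control cells that both contrasts share. In Ribo-seq, 28 of 35 members were lower in RPL3L OE cells (background 5.69% lower, 5.38% higher), at a median of -0.26 on the log2 scale against 0.00 for all transcripts, and 24 were lower in RPL3 OE cells (background 5.9% lower, 4.7% higher), at a median of -0.24. Those 28 and 24 genes fall into 15 and 11 of the 18 sets tested. Sets of a single gene are included, and some of these also share words with other histone genes. By class, 3 of 5 H1, 6 of 9 H2A, 8 of 10 H2B, all 6 H3 and all 5 H4 genes were lower with RPL3L, and 2, 3, 8, 6 and 5 with RPL3. Hist1h4h had the most negative difference with RPL3L (-0.32 ± 0.07, adjusted p = 0.0012), and stood at -0.28 ± 0.07 with RPL3. Hist1h2bk was at 414, 503 and 432 CPM in control cells, 364, 374 and 358 CPM in RPL3L OE cells (-0.29 ± 0.06, adjusted p = 0.0013) and 330.0, 346 and 399 CPM in RPL3 OE cells (-0.33 ± 0.06, adjusted p = 0.00028). Hist1h3g was at 731, 912 and 840.0 CPM in control, 669.5, 694 and 635 CPM in RPL3L OE (-0.31 ± 0.06, 0.0014) and 645, 614 and 749.9 CPM in RPL3 OE cells (-0.31 ± 0.07, 0.0012). For both genes RPL3L OE cultures lay below every control culture, while the third RPL3 OE culture of Hist1h3g lay above the lowest control.

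In RPL3L OE cells the 20 lower with the smallest p were Hist1h1a, Hist1h4h, Hist1h2bk, Hist1h3g, Hist1h2bp, Hist1h3d, H2afx, Hist1h3b, Hist1h4j, Hist2h3b, Hist1h3f, Hist1h4b, Hist2h3c1, Hist1h2bj, Hist1h2bg, Hist1h1d, H2afj, Hist1h2af, H2afz and Hist2h2aa1. In RPL3 OE cells they were Hist1h2bk, Hist1h3b, Hist1h3d, Hist1h3g, Hist1h2bp, Hist1h2bj, Hist1h3f, Hist1h2bc, Hist1h4h, Hist1h2bg, Hist1h4j, Hist1h4d, Hist2h2be, Hist1h2br, Hist1h1d, H2afj, Hist1h1c, Hist1h4b, Hist2h3b and Hist2h3c1.

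These counts rested on the second control culture, the highest of the 3 cultures for 34 members. Without it, 8 members were lower with RPL3L (background 3.51%) and 5 with RPL3 (4.17%). Leaving out RPL3L OE replicate 3 left 13, leaving out RPL3 OE replicate 1 left 11 and replicate 2 left 12, and DESeq2 called 12 with RPL3L (background 2.71%) and 4 with RPL3 (2.88%). Hist1h2bk, Hist1h2bp, Hist1h3b, Hist1h3d and Hist1h3g were lower in both contrasts without control replicate 2. All 36 genes summed to 18633 to 23174 CPM in control, 16621 to 19879 CPM in RPL3 OE and 16595 to 17999 CPM in RPL3L OE cells, so the RPL3 OE range overlapped control and the RPL3L OE range did not. The most negative difference of all was -0.33, for Hist1h2bk with RPL3. H1f0, at 259.8, 291 and 264 CPM in control and 245, 274 and 254 CPM in RPL3L OE cells, was not called in either contrast (-0.07 ± 0.05 and 0.03 ± 0.05).

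**Figure D5:**
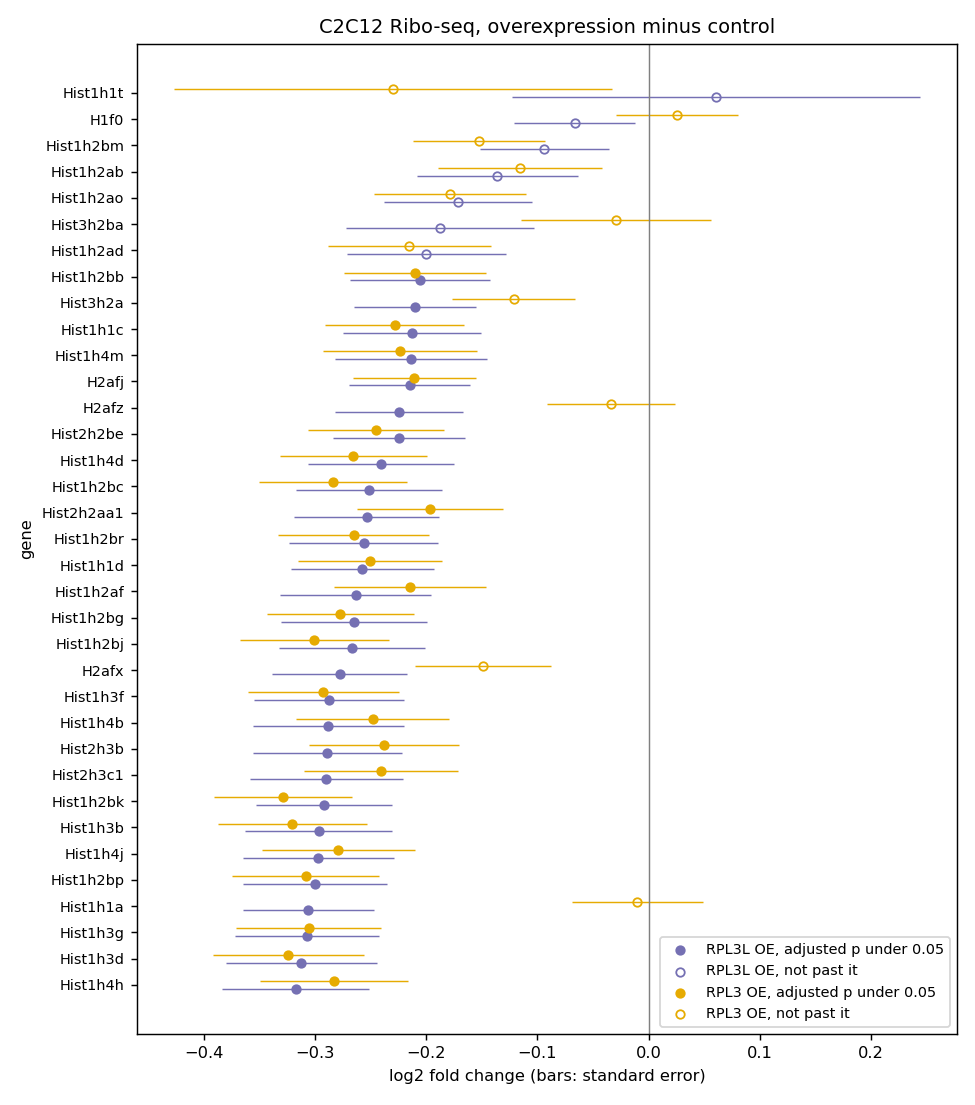
Log2 fold change of RPL3L OE and RPL3 OE over control C2C12 cells in Ribo-seq for the 35 histone genes tested, with standard errors as bars; filled points passed an adjusted p under 0.05. Filled points lie between -0.33 and -0.20, and Hist1h1a and H2afz are filled with RPL3L and lie at -0.01 and -0.03 with RPL3.

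RPL3L OE and RPL3 OE cells were then compared with each other in Ribo-seq, where 2 of 35 members were called, both lower with RPL3L (background 9.27% lower, 9.59% higher). Hist1h1a, the H1.1 gene, was at 580.1, 607 and 581 CPM in RPL3L OE and 697, 696 and 785 CPM in RPL3 OE cells, a difference of -0.30 ± 0.06 (adjusted p = 0.00026). H2afz was at 452, 501 and 455 CPM and 519, 515 and 579.8 CPM, a difference of -0.19 ± 0.06 (adjusted p = 0.015). RPL3L OE cultures lay below every RPL3 OE culture for both genes. Leaving out RPL3 OE replicate 3 or RPL3L OE replicate 1 or 3 ended the call of H2afz (adjusted p = 0.064, 0.089 and 0.094) and left that of Hist1h1a. Control cells were at 653, 789.9 and 753 CPM for Hist1h1a and 513, 595 and 545 CPM for H2afz. H2afx differed by -0.13 ± 0.06, which was not called (adjusted p = 0.14).

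In RNA-seq, 4 of 31 members were lower in RPL3L OE than in control cells (background 4.61% lower, 4.65% higher), 3 of them from 1 read-sharing H3 set. H2afz was at 439.8, 474 and 481 CPM in control and 421, 392 and 394 CPM in RPL3L OE cells, -0.17 ± 0.03 (adjusted p = 0.00019), with no overlap. Hist1h3f, at 4.55, 4.16 and 5.55 CPM in control and 2.74, 2.02 and 3.72 CPM in RPL3L OE cells, differed by -0.72 ± 0.21 (adjusted p = 0.015), and the groups did not overlap. Hist1h3b (-0.65 ± 0.19) and Hist1h3d (-0.64 ± 0.19) were lower too. DESeq2, and leaving out control replicate 3 or RPL3L OE replicate 1 or 2, left 1 call each. With RPL3, 1 of 31 members was called, H1f0, which was higher (0.16 ± 0.04, adjusted p = 0.00047, background 8.12% higher, 7.96% lower); H1f0 was at 184, 177 and 193 CPM in control and 204, 203 and 196 CPM in RPL3 OE cells, which lay above every control. Without control replicate 2 there were 4 calls with RPL3, and without RPL3 OE replicate 1 there were 2.

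RPL3L OE cells had 7 members lower than RPL3 OE cells in RNA-seq (background 14.1% lower, 13.0% higher) and 0 higher: H2afz (-0.26 ± 0.03), H1f0 (-0.18 ± 0.04), Hist1h4m (-1.05 ± 0.31) and the H3 genes Hist1h3b (-0.68 ± 0.21), Hist1h3f (-0.68 ± 0.23), Hist1h3d (-0.62 ± 0.21) and Hist1h3g (-0.53 ± 0.20). Hist1h3b and Hist1h3f were low in this assay, at 2.02 to 6.07 CPM over all C2C12 libraries. Leaving out RPL3 OE replicate 1 left 4 of these calls and RPL3L OE replicate 2 left 3. H2afz was thus called lower in RPL3L OE cells than in control and RPL3 OE cells in both assays (-0.22 in Ribo-seq against control), but both of its Ribo-seq calls ended without RPL3L OE replicate 1 or 3, that against RPL3 OE also without RPL3 OE replicate 3 and that against control also without control replicate 2.

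TE was called for 1 of 31 members with RPL3L over control, H2afx, which was lower (-0.43 ± 0.08, adjusted p = 0.0021, background 0.951% lower, 1.13% higher). H2afx was at 504, 617 and 583 CPM in control and 468, 476 and 454 CPM in RPL3L OE Ribo-seq, against 46.1, 40.5 and 46.3 and 45.2, 47.3 and 51.3 CPM in RNA-seq, so footprints lay lower without overlap while RNA-seq values overlapped. Leaving out control replicate 2 or RPL3L OE replicate 3 ended this call. For RPL3 over control 0 of 31 were called (background 0.052%), with 1 called lower by DESeq2. Hist1h2bm (-1.10 ± 0.32, adjusted p = 0.26) and Hist1h4m (-0.87 ± 0.27, 0.29) had the smallest p-values. For RPL3L over RPL3 there were 0 (background 0.305%), with 1 called higher by DESeq2, and Hist1h4m (1.06 ± 0.34, adjusted p = 0.22) and Hist1h3b (0.69 ± 0.23, 0.28) came first by p.

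Of the 12 proliferation genes, Cdt1 (-0.25 ± 0.05), which licenses replication origins, and Mcm5 (-0.18 ± 0.05) were lower with RPL3L in Ribo-seq (background 5.69% lower, 5.38% higher). With RPL3, Rrm1 (0.15 ± 0.05) was higher and E2f2 (-0.47 ± 0.14) lower (background 5.9% lower, 4.7% higher). In RNA-seq, Mcm5 was lower with RPL3L, and Rrm1 and Rrm2 were higher and E2f2 lower with RPL3. The summed footprints of the 12 proliferation genes were 2005 to 2017 CPM in control, 1989.9 to 2108 CPM in RPL3 OE and 1868 to 1929 CPM in RPL3L OE cells. The part of cell-cycle position in the histone differences was not tested. Among 19 chaperone genes, Asf1b was lower with RPL3L in both RNA-seq (-0.26 ± 0.05) and Ribo-seq (-0.33 ± 0.05), and Hat1, which acetylates new H4, was higher in Ribo-seq (0.26 ± 0.06). In RNA-seq Anp32e and Nap1l1 were lower with RPL3L too (background 4.61% lower, 4.65% higher). Asf1b and Ssrp1 were higher with RPL3 in RNA-seq (background 8.12% higher, 7.96% lower). Of the 12 processing genes 0 were called with RPL3L in either assay, and Cpsf2 (0.21 ± 0.06) and Cpsf3 (0.24 ± 0.06), subunits of the complex that cuts pre-mRNA 3′ ends, histone pre-mRNA included, were higher with RPL3 in Ribo-seq. Both were called higher with RPL3 in RNA-seq too. Between RPL3L OE and RPL3 OE cells in Ribo-seq, 1 proliferation gene was higher and 4 lower (background 9.59% higher, 9.27% lower). For chaperone genes it was 2 and 2, and for processing genes 0 and 1. In RNA-seq these were 1 and 4, 4 and 3, and 2 and 3 (background 13.0% higher, 14.1% lower).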

How the data were processed

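RNA-seq (poly(A)-selected), Ribo-seq and Disome-seq values were whole-number counts per transcript, deposited by the authors; for footprints the sources give adapter removal with cutadapt and FASTX, removal of rRNA reads and alignment with STAR to GRCm38.p6 transcripts (reads mapping to several places kept), duplicate removal with UMI-tools and counting with featureCounts. The RNA-seq steps are not given separately, and the strand setting of counting is not given in the sources used here. m6A peaks were deposited by the authors as counts and TPM per coding-region peak, called with HOMER and counted with bedtools; 3181 peaks were listed.

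Each transcript stood on 2 identical lines, of which 1 was kept. Both Disome-seq columns of a mouse were summed, and what sets them apart is not given in the sources used here. CPM values were computed here from these counts, with TMM scaling of all libraries of an assay. Groups followed the sample labels, and separate mice or cultures were the replicates. Tests used edgeR 4.0.16 (quasi-likelihood, two-sided, Benjamini-Hochberg over all transcripts, adjusted p under 0.05, default prior count, mean count of at least 10) in R 4.3.3. TE and disome ratios were interaction terms. The fits were tested on simulated counts. No replicates were the same library deposited again: chi-square per feature was 1.29 to 31.6. Same-numbered WT heart RNA-seq and Ribo-seq libraries, which share a number in the labels, deviated together (r 0.27 to 0.39, n = 4); the other 15 of 16 pairs of groups did not pass this check.

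Alternatives were DESeq2 1.42.0, library totals, other count filters, 1 transcript per gene, fits of only the groups compared, a replicate block, leaving out each replicate, limma 3.58.1 on log2(TPM + 1) for m6A, and, added after seeing the data, each Disome-seq column alone. Members and lists were chosen with earlier results of these data known. Values are given for every library for replacement variants with a mean count of at least 10 and, per class, the pair of replication-dependent genes highest in C2C12 Ribo-seq. In each comparison the called members, up to 20 by smallest p, or otherwise the pair with the smallest p, are named, and up to 4 called genes of each list. Further genes in the heart Ribo-seq, Disome-seq and overexpression paragraphs were named after their values were seen.

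Total counts of 39016 to 175747 limit Disome-seq. Stem-loops were searched in GENCODE M21 transcripts; sharing was measured on 28-base words. Python 3.11.15, pandas 2.3.3, numpy 2.4.6 and matplotlib 3.10.9 were used.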

Additional observations from a re-analysis of the deposited data

Results flagged for a closer look

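A single library lay apart from the other 3 of its group by Dixon's test in 7 of the 84 groups of values tested, where chance gives about 1 in 20. In RNA-seq these were H1f0 in WT heart replicate 3 (85.7 CPM, the others 66.9 to 69.2), H2afx in Rpl3l-/- heart replicate 2 (6.67 CPM, the others 3.35 to 3.71), Hist1h1d in the same library (6.50 CPM, the others 1.79 to 2.36) and Hist1h4d in WT heart replicate 1 (2.28 CPM, the others 0 to 0.315). In Ribo-seq, WT heart replicate 1 was low for Hist1h1d (113 CPM, the others 142 to 147) and for Hist1h4m (59.3 CPM, the others 69.8 to 70.6). In Disome-seq, Hist1h4m stood at 458 CPM in Rpl3l-/- heart replicate 4, with the others at 158 to 199.6 CPM.

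Counts of 2 myoblast genes appeared in heart Disome-seq, data outside the comparisons of these genes. Over the 8 first columns Myod1 had 5 counts and Cdh15 had 18, against 2 and 0 over the 8 second columns.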

How the results depend on the processing

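Of 267 alternative counts of called members over 19 comparisons, 235 stayed within 1.5 times the reported count and 32 did not, and the cause was not tested. DESeq2 called 3 members in heart Ribo-seq, 1 for the disome ratio, 1 for RPL3L OE against control in RNA-seq, 12 and 4 for RPL3L OE and RPL3 OE against control in Ribo-seq, and 1 each for the TE of RPL3 OE against control and of RPL3L OE against RPL3 OE. A mean count of at least 50 gave 2 in heart Ribo-seq, 11 for WT heart Ribo-seq against RNA-seq and 15 for WT Disome-seq against Ribo-seq, where fewer members were tested. With 1 transcript per gene there were 2 in RNA-seq of RPL3 OE against control. The second Disome-seq column alone gave 6 and turned H2afx to -0.60; the first alone gave 28.

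Leaving out 1 library at a time gave 0 to 1 in heart Ribo-seq (1 without WT replicate 2), 26 to 27 for WT heart Ribo-seq against RNA-seq, 21 to 28 for Disome-seq against Ribo-seq, 34 to 35 for control C2C12 Ribo-seq against RNA-seq, and 23 to 26 and 35 for C2C12 against heart in RNA-seq and Ribo-seq. In RNA-seq it gave 1 to 5 for RPL3L OE against control, 1 to 4 for RPL3 OE against control and 3 to 9 for RPL3L OE against RPL3 OE. In Ribo-seq it gave 8 to 31, 5 to 30 and 1 to 2 (1 without RPL3 OE replicate 3 or RPL3L OE replicate 1 or 3), and for TE 0 to 1 for RPL3L OE against control and 0 to 2 for RPL3L OE against RPL3 OE (2 without RPL3 OE replicate 3). The other comparisons stayed at 0.

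The replicate block left 26 calls for WT heart Ribo-seq against RNA-seq, the comparison whose numbers pair the samples. Elsewhere the samples shared a number and did not pass the pairing check. Same-numbered Ribo-seq and Disome-seq libraries still matched best in 4 of 4 cases in WT (r 0.052 to 0.12) and in Rpl3l-/- hearts (r 0.077 to 0.17). Control C2C12 RNA-seq and Ribo-seq did so in 3 of 3 (r 0.040 to 0.15). Pairing by mouse or culture is undecided there. In these comparisons the block gave 1 call for the TE of RPL3L OE against RPL3 OE and moved no other count by over 1.5 times. Library totals moved the median of all transcripts by 0.75 and 0.40 for C2C12 against heart in RNA-seq and Ribo-seq and by 0.12 for the disome ratio. For 169 pairs of a named gene and a comparison, 2009 of 2142 alternative values stayed on their side of the threshold, 123 lost the call, 9 gained one and 1 turned its sign. Depth limited RNA-seq of H3 and H4 genes in the heart and all Disome-seq values, and shared reads limit what can be said of single H2A, H2B, H3 and H4 genes.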
